A study of Mus musculus with 17 samples.

Results

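The change in gene expression shared by day 7 and day 21 after loss of C/EBPa was measured in sorted mouse hematopoietic stem cells (HSCs). It was estimated from 14 of the 17 Affymetrix arrays of the study: all 7 arrays titled C/EBPa KO (knockout) and all 7 titled Control. The 3 remaining arrays, of fetal liver HSCs, were not used for it. Cells of all 14 arrays had been sorted as lineage-negative, Sca1-positive, cKit-positive, CD150-positive and CD48-negative after an injection of pIpC, an RNA duplex that provokes an interferon response and serves to activate interferon-driven Cre alleles. There were 3 control and 3 KO arrays at day 7 after pIpC, and 4 control and 4 KO arrays at day 21. RNA was amplified from small inputs with the Ovation Pico WTA system before hybridization, per the labels' protocols. The labels give the control arrays as wild type. For all 7 KO arrays the genotype field instead reads Pu.1 knock-in (PU.1ki/ki), as does the series' design text, so titles and genotype fields conflict. KO below means an array titled C/EBPa KO. The Cre driver, the age of the mice and whether arrays came from separate animals are not stated, so p-values measure only the spread between these samples, which may be technical.

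C/EBPa is a basic leucine zipper transcription factor. In bone marrow it is best known for directing progenitors into the granulocyte and monocyte lineages and for restraining proliferation. HSCs of adult marrow divide rarely, and the title of the series concerns the control of this quiescence by C/EBPa. Fewer cells of a type and less RNA per cell cannot be told apart in samples of this kind.

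Values are deposited probe set intensities, whose lowest value, the floor, was 16. KO effects are differences of log2 intensity between KO and control, fitted with limma with the day as an additive term, so that a positive value means a higher level in KO. A gene was called where limma's Benjamini-Hochberg adjusted p was under 0.05 over all 16654 genes tested. The floor share is the percentage of an array's probe sets at the floor. It ran from 20.4% to 23.3% on KO arrays and from 21.7% to 25.2% on control arrays. The mean log2 ratio of 3' to 5' signal of the Actb and Gapdh control probe sets ran from 0.19 to 0.36 on KO arrays and from -0.40 to 0.34 on control arrays. The control arrays farthest from the rest of their group were day 7 replicate 1 and day 21 replicate 3. Among genes of the sort gate, Kit differed by -0.08 (SE 0.15) and Slamf1, the gene for CD150, by 0.08 (SE 0.47), with 1.08 (SE 0.39) and -0.06 on its other probe sets. Cd48, whose product the gate excludes, differed by 1.73 (SE 0.74, limma adjusted p = 0.360), with a median of 95.7 in KO and of 18.8 in control. Its day 7 values were 18.8, 16 and 16 in control and 60.9, 90.3 and 282.9 in KO, a difference of 2.78, and the highest value of all, 658, was that of control day 21 replicate 3. The Cd48 difference was 2.34 without both far control arrays.

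Cebpa, the gene titled as deleted, fell on the arrays titled KO. At day 7 its intensity was 136, 141 and 315 on the control arrays and 32.03, 31.0 and 20.7 on the KO arrays. At day 21 it was 275, 115, 115 and 532 in control and 26.7, 29.9, 25.0 and 39.8 in KO. Every KO array lay below every control array at both days. The joint log2 difference was -2.78 (SE 0.34, limma adjusted p = 0.0156), a 6.87-fold lower level. A two-sided exact permutation of KO and control labels within days gave p = 0.00143, the smallest that the 1400 arrangements allow. The labels do not place the probe set relative to the deleted exon.

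Spi1, the gene for PU.1, did not pass the test. Its intensity ran from 126 through a median of 334 to 623 in control and from 231 through 347 to 460 in KO. The groups overlapped, and the log2 difference was 0.13 (95% confidence interval -0.54 to 0.80, limma adjusted p = 0.893; exact permutation p = 0.714), of the opposite sign in some settings. Of the C/EBP family, Cebpb, a factor of emergency granulopoiesis, had -0.87 (SE 0.40, limma adjusted p = 0.389) and Cebpd 0.83 (SE 0.47, limma adjusted p = 0.496), both with overlapping groups. Cebpa was the one called member among 5 tested.

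The effect shared by both days gave few single-gene calls. limma called 11 genes, of which 8 were higher in KO (0.048% of genes tested) and 3 lower (0.018%). The rises were in Pf4, Cd69, Aspm, Trim41, Il18r1, Kif18b, Pcyox1l and Eif4enif1, and the falls in Cebpa, Fzd8 and Map9. At an unadjusted p under 0.05, 1271 genes were higher (7.63%) and 862 lower (5.18%), 2133 in all where 833 would be found by chance. At an adjusted p under 0.1 there were 49 higher and 21 lower. KO arrays lay entirely above control arrays within both days for 79 genes (0.474%) and entirely below for 48 (0.288%), and 10 of the 11 called genes were among these. Over all genes the median difference was 0.0081 and 51.1% were higher in KO. With each array centred on its median, the median shifted to -0.11 and 37.6% were higher, with 3 called rises and 3 called falls. Quantile normalization gave 42.7% higher, with 5 called rises and 3 falls.

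**Figure D1:**
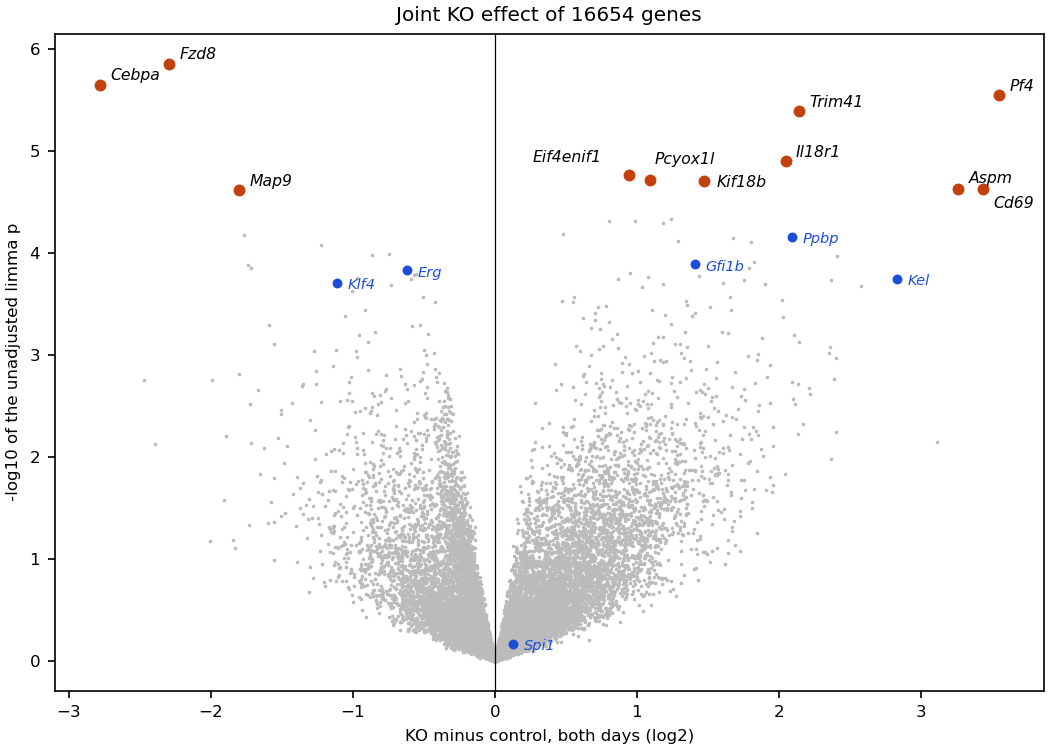
Each point is 1 of the 16654 genes, with the joint difference KO minus control (log2) on the horizontal axis and -log10 of the unadjusted limma p on the vertical axis. The 11 called genes are large red points, and Ppbp, Gfi1b, Kel, Klf4, Erg and Spi1 are blue. Cebpa and Fzd8 lie at the upper left, at -2.78 and -2.29, Pf4 at the upper right, at 3.55, and Spi1 near the bottom centre, at 0.13.

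Most calls were lost in most omissions of 1 array. Cebpa, Fzd8 and Pf4 were called whichever 1 of the 14 arrays was left out, with limma adjusted p of at most 0.0475. Trim41 lost its call without control day 7 replicate 2 or KO day 7 replicate 1 (largest adjusted p = 0.0535). Each of the other 7 genes was called in only 2 or 3 of the 14 omissions, with adjusted p up to 0.113 by limma. Aspm was called without control or KO replicate 4 of day 21, Eif4enif1 without control replicate 2 or KO replicate 1 of day 21, and Map9 without control replicate 1 or KO replicate 3 of day 21. Kif18b was called without control replicate 4 or KO replicate 1 or 2 of day 21, and Cd69 without control day 7 replicate 3, control day 21 replicate 2 or KO day 21 replicate 1. Il18r1 was called without control day 7 replicate 1, KO day 7 replicate 2 or control day 21 replicate 1, and Pcyox1l without KO day 7 replicate 2, control day 21 replicate 2 or KO day 21 replicate 3. With the floor share as a covariate limma called 0 genes (smallest adjusted p = 0.0685, 1207 genes at an unadjusted p under 0.05), and with the 3' to 5' ratio also 0 (smallest adjusted p = 0.0583, 1753 genes). The differences themselves stayed near their size with the floor share as a covariate: Pf4 had 3.92, Aspm 3.26, Cd69 3.09, Il18r1 2.23, Trim41 1.95, Kif18b 1.36, Pcyox1l 1.198, Eif4enif1 0.80, Map9 -1.83, Fzd8 -2.40 and Cebpa -2.69. With that floor covariate, members higher at an unadjusted p under 0.05 numbered 11 of 30 in the erythroid list, 15 of 52 in the G2/M list, 7 of 25 in the megakaryocyte list, 6 of 41 among mitochondrial ribosomal proteins, 3 of 43 in the respiratory chain and 1 of 31 in the proteasome, and members lower numbered 4 of 25 in the Wnt list, 4 of 24 in the quiescence list and 2 of 24 among NR4A, EGR and AP-1 factors. Without the 2 far control arrays limma called 8 genes, and the lists just named had 19, 22, 12, 10, 8 and 6 members higher and 6, 6 and 6 lower. Over all 16654 genes, those under that p numbered 1207 with the floor covariate and 1923 without the 2 far control arrays. These totals are not split by direction. The 3 of 43 in the respiratory chain and 1 of 31 in the proteasome are therefore not read as an excess. The counts with all 14 arrays and without the covariate are given list by list.

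**Figure D2:**
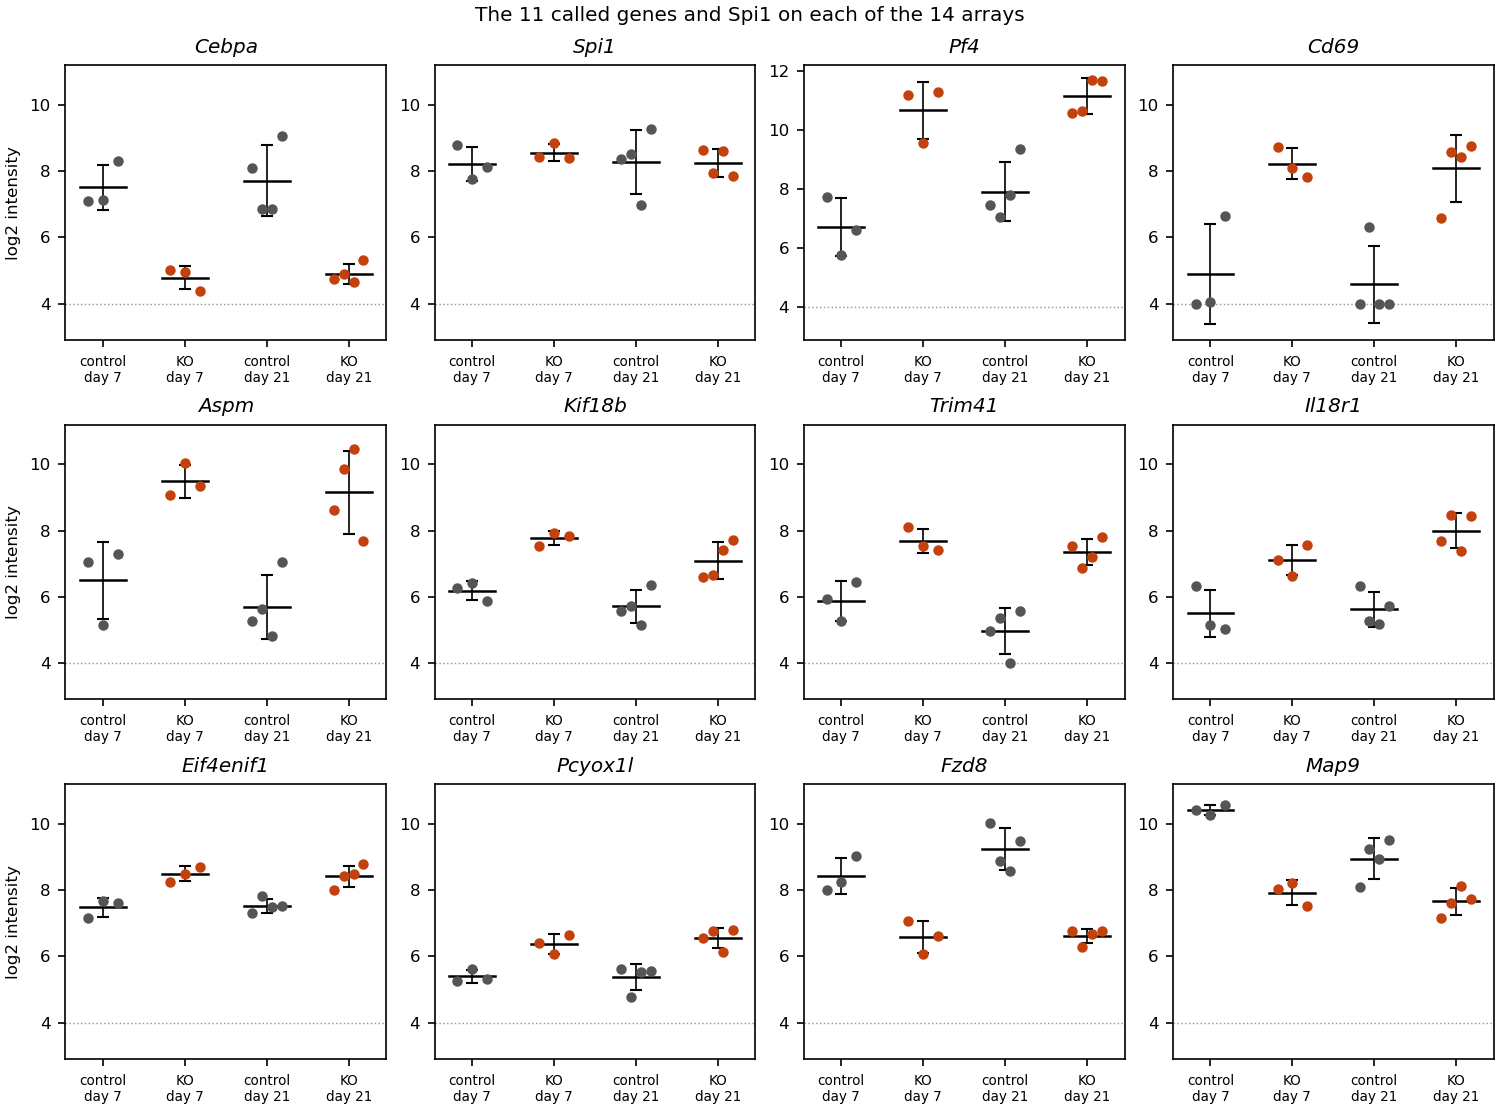
Log2 intensity of the 11 called genes and Spi1 on each of the 14 arrays (points; grey for control, red for KO), with the mean and SD of each group as a bar and whiskers; the dotted line is the floor at log2 4, and the axes do not start at 0. Cebpa and Fzd8 lie lower on every KO array than on every control array and the 8 called rises lie higher within each day, while Map9 is lower without overlap at day 7 only and Spi1 overlaps.

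Most genes of platelets and their precursors, the megakaryocytes, had positive differences, and 1 of them was called. The largest called rise was that of Pf4, which encodes platelet factor 4, a chemokine of platelet alpha granules. Its intensity ran from 54.7 through a median of 175 to 658 on control arrays and from 757 through 2345 to 3332 on KO arrays. The groups did not overlap, and Pf4 rose by 3.55 on the log2 scale (SE 0.44, limma adjusted p = 0.0156), 11.7-fold. Its promoter, from 250 bases before the start of transcription to 50 after it, is shown because it carries matches to both lineage motifs searched, that of the GATA family, searched as the letters AGATAA, and that of C/EBP factors, searched as TTGCNNAA, on either strand. The sequence is from RefSeq on GRCm38.p6, plus strand, chr5:90772185-90772484, with the C/EBP match at position -212 and the GATA match at 37, counted from the start of transcription, in capitals.
Pf4: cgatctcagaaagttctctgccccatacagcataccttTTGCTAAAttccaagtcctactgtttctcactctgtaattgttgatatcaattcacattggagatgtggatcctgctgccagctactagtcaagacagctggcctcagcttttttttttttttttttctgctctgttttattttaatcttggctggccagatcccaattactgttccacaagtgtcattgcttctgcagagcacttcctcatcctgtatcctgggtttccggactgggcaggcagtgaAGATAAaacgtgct

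Of the 25 tested genes of the megakaryocyte and platelet list, 20 had a positive difference, with a median of 0.66 against 0.0081 over all genes. At an unadjusted p under 0.05, 10 were higher (40.0% of the list against 7.63% of all genes) and 1 lower; Pf4 alone was called. Ppbp, another platelet chemokine, had 2.09 (SE 0.36, limma adjusted p = 0.0618), with a median intensity of 28.5 in control and 113 in KO. Plek, which encodes pleckstrin, a substrate of protein kinase C in platelets, had 1.90 (SE 0.37), and Itga2b, the gene for the platelet integrin CD41, 1.19 (SE 0.23), both with a limma adjusted p of 0.0726. Itga2b had 0.54 at day 7 and 1.67 at day 21. Vwf, von Willebrand factor, had 0.67 (SE 0.23, limma adjusted p = 0.273). The median of the list was 0.27 at day 7 and 0.85 at day 21, and its sign was positive in 33 of 33 settings. On day 21 the mean log2 intensity over the list ran from 7.16 to 7.45 in control and from 7.95 to 8.48 in KO, without overlap, while at day 7 the groups overlapped.

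Red cell genes had the highest median of the 18 lists plotted. Of 30 tested erythroid genes 29 had a positive difference, with a median of 0.97, and 17 were higher at an unadjusted p under 0.05 (56.7%) and 0 lower; none was called. Among the factors that direct the lineage, Gfi1b, a repressor needed for erythroid and megakaryocyte maturation, had 1.41 (SE 0.26, limma adjusted p = 0.0726). Its intensity ran from 454 through 840 to 1486 in control and from 947 through 1746 to 3890 in KO, apart within each day. Klf1, an activator of globin and other red cell genes, had 2.35 (SE 0.55, limma adjusted p = 0.140), and Gata1, the central erythroid GATA factor, 1.67 (SE 0.57, limma adjusted p = 0.273), both with overlapping groups over the 14 arrays.

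Among the proteins of the red cell itself, Kel, a membrane glycoprotein that carries the Kell blood group, had a median of 198 in KO and lay at the floor on 4 control arrays. Its fitted difference was 2.83 (SE 0.54, limma adjusted p = 0.0726), a value that depends on the floor. Aqp1, the water channel, had 2.11 (SE 0.47, limma adjusted p = 0.120) and Car1, a carbonic anhydrase of red cells, 3.11 (SE 0.97, limma adjusted p = 0.237). Ache, which encodes acetylcholinesterase, was counted on the megakaryocyte list and not on the erythroid list. It had 1.81 (SE 0.53, limma adjusted p = 0.220), and its day 7 value was -0.02 against 3.19 at day 21. The erythroid median was 0.76 at day 7 and 1.18 at day 21. At day 7 the list's mean log2 intensity ran from 6.71 to 6.89 in control and from 7.51 to 8.09 in KO, whereas the day 21 groups overlapped. It was 0.85 with arrays centred on their median and 1.12 with the floor share as a covariate.

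**Figure D3:**
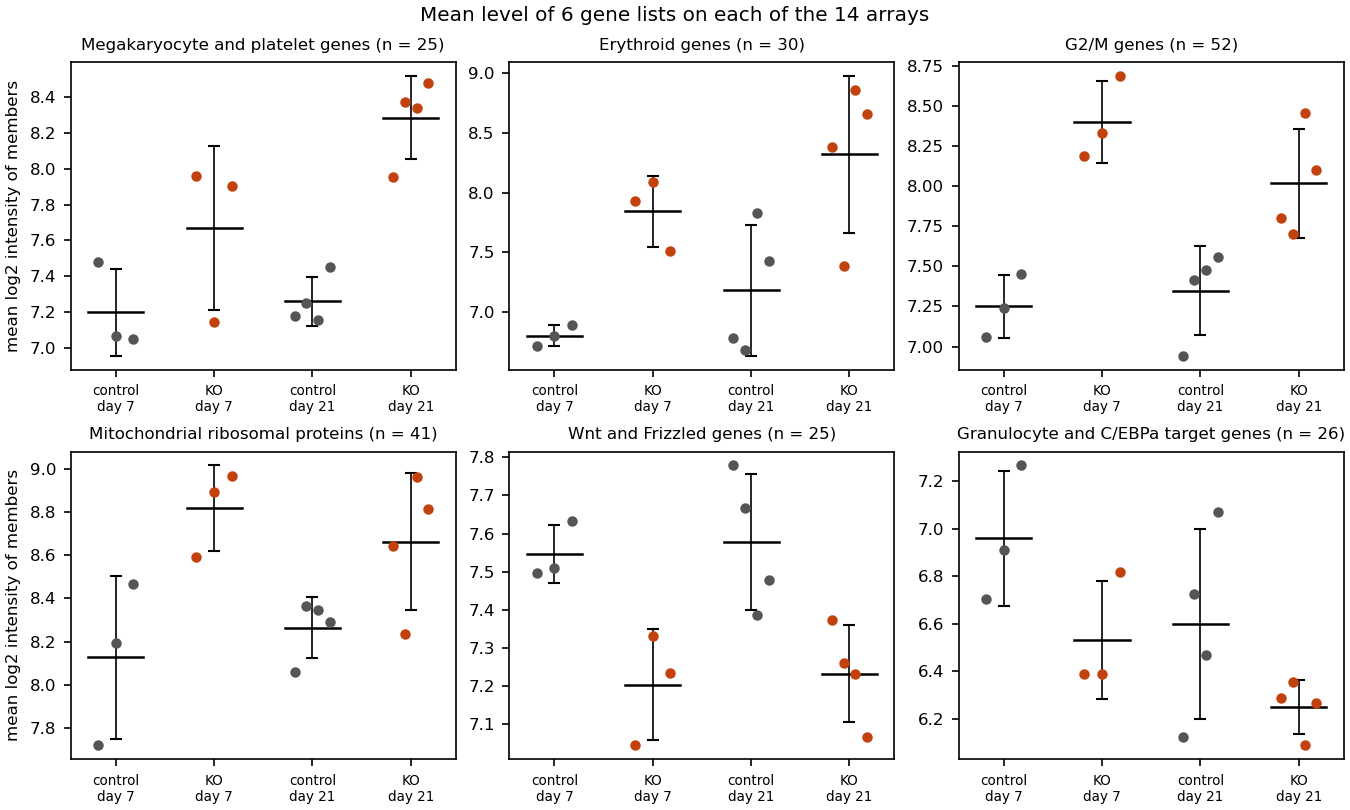
Mean log2 intensity over the tested members of 6 gene lists on each of the 14 arrays (points; grey for control, red for KO), with the mean and SD of each group as a bar and whiskers; the axes differ between panels and do not start at 0. The G2/M and Wnt lists are apart at both days, erythroid genes and mitochondrial ribosomal proteins at day 7 and megakaryocyte genes at day 21, and granulocyte genes overlap.

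The rises included a pair of genes of mitosis, Aspm and Kif18b. Aspm, which encodes a protein of the spindle poles, ran from 27.9 through a median of 50.1 to 156 in control and from 205 through 650 to 1402 in KO. No KO array reached down to a control array, and Aspm rose by 3.26 (SE 0.50, limma adjusted p = 0.0366), 9.59-fold. The 4 other probe sets of Aspm had 0.75, 2.37, 1.43 and 1.92, and none of them passed. Kif18b, a kinesin that shortens microtubules in mitosis, ran from 35.7 through 58.1 to 86.2 in control and from 96.3 through 185 to 244 in KO, and rose by 1.47 (SE 0.22, limma adjusted p = 0.0366), 2.77-fold. The promoters of these called mitotic genes are shown because both carry, near the start of transcription, the letters TTTGAA of the cell cycle homology region (CHR), an element known from genes expressed in G2 and mitosis. The sequences are from RefSeq on GRCm38.p6, at chr1:139454523-139454822 on the plus strand for Aspm and chr11:102925075-102925374 on the minus strand for Kif18b, with the match in capitals, at 7 and at 4 counted from the start.
Aspm: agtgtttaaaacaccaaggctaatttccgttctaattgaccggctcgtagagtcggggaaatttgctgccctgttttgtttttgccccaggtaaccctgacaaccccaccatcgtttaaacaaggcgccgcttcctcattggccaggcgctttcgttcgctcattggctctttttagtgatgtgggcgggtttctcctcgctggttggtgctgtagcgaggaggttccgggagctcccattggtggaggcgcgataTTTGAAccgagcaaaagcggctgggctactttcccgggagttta
Kif18b: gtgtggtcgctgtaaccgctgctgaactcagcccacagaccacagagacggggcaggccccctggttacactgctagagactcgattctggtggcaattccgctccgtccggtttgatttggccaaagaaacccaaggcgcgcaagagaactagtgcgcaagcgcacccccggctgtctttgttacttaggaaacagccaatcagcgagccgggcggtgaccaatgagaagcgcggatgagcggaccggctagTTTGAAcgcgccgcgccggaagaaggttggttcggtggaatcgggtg

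In the G2/M list, whose members peak in G2 or mitosis, 47 of 52 tested genes had a positive difference, with a median of 0.88; 21 were higher at an unadjusted p under 0.05 (40.4%) and 0 lower, and none was called. Aspm and Kif18b were not on this list. Cenpe, a kinetochore motor, ran from 16 through 56.1 to 159 in control and from 165 through 262 to 321 in KO, without overlap, with a difference of 2.03 (SE 0.43, limma adjusted p = 0.1004; 0.85 on its other probe set). Plk1, a mitotic kinase, had 1.15 (SE 0.26, limma adjusted p = 0.123), and its KO arrays, from 107 upwards, lay above all control arrays, of which the highest was at 105. Cdc20, which triggers anaphase, had 1.78 (SE 0.42, limma adjusted p = 0.143). Smc2, a condensin subunit, had 1.85 (SE 0.44, limma adjusted p = 0.150), but 0.19, 1.17, 0.23 and 0.25 on its 4 other probe sets. Foxm1, a transcription factor of G2 genes, had 0.89 (SE 0.21) and the kinase gene Aurka 1.80 (SE 0.56; 0.00 on a dim probe set).

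The mean log2 intensity of the G2/M list did not overlap between groups. At day 7 it ran from 7.06 to 7.45 in control and from 8.19 to 8.68 in KO, and at day 21 from 6.94 to 7.56 and from 7.70 to 8.46. The median difference was 1.15 at day 7 and 0.66 at day 21. It was 0.76 with arrays centred on their median and 0.70 with the floor share as a covariate, and positive in 33 of 33 settings. TTTGAA was present in 31 of 43 promoters of this list (72.1%), against 12.8% of promoters of all genes tested and 17.9% of the 32851 promoters of the table.

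Most genes of DNA replication had positive differences, without a call. Of 39 tested G1/S genes 33 had a positive difference, with a median of 0.45 and 7 higher at an unadjusted p under 0.05 (17.9%) against 0 lower. Rrm1, a subunit of ribonucleotide reductase, had 0.82 (SE 0.18, limma adjusted p = 0.125). Uhrf1, which maintains DNA methylation at replication, had 1.25 (SE 0.31, limma adjusted p = 0.172), and Mcm2, a subunit of the replicative helicase, 1.45 (SE 0.41, limma adjusted p = 0.202; 0.12 on its other probe set). The G1/S median was 0.45 at day 7 and 0.22 at day 21, and 0.22 with the floor share as a covariate, where 5 members were higher at an unadjusted p under 0.05. The list's mean log2 intensity was apart at day 7 and overlapped at day 21, with a control maximum of 8.41 and a KO minimum of 8.19. Of 27 DNA repair genes 22 had a positive difference (median 0.26), 5 of them at an unadjusted p under 0.05 (18.5% against 7.63% of all genes). Msh6, of mismatch repair, had 1.24 (SE 0.27, limma adjusted p = 0.110).

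Regulators of the exit from quiescence were split. Cdk6, a cyclin-dependent kinase whose level is known to set how fast HSCs leave quiescence, ran from 755 through 1016 to 1536 in control and from 1655 through 2016 to 2686 in KO. These groups did not overlap, and the difference of 0.99 (SE 0.16) just missed the threshold with a limma adjusted p of 0.0561. Cdk4, its close relative, had 0.87 (SE 0.20, limma adjusted p = 0.138). Ccnd2, the gene for cyclin D2, a partner of both kinases, had -0.50 (SE 0.10, limma adjusted p = 0.0851), and its 6 other probe sets were also negative, from -0.51 to -1.22. Over the 17 tested D-type cyclins and CDK regulators the median was 0.30. At an unadjusted p under 0.05, 3 were higher (17.6% against 7.63% of all genes) and 1 lower (5.88% against 5.18%).

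Mitochondrial and protein turnover genes had positive medians, with no single call. Of 41 mitochondrial ribosomal proteins 33 had a positive difference (median 0.49; 9 higher at an unadjusted p under 0.05, 21.95%), of 43 nuclear genes of the respiratory chain 35 (median 0.30; 11 higher, 25.6%), and of 31 proteasome subunits 28 (median 0.37; 9 higher, 29.0%). In these lists 0 genes were lower at that level. Mrps28, of the small mitochondrial ribosomal subunit, had 1.35 (SE 0.31, limma adjusted p = 0.134), Cox7a2, of cytochrome c oxidase, 1.05 (SE 0.25, limma adjusted p = 0.143) and Psmb5, a catalytic subunit of the proteasome, 0.88 (SE 0.27, limma adjusted p = 0.237). The medians were larger at day 7, at 0.79, 0.53 and 0.62, than at day 21, at 0.28, 0.16 and 0.21. They were 0.26, 0.18 and 0.18 with the floor share as a covariate. The mean log2 intensity of each of these lists was apart at day 7 and overlapped at day 21. At day 21 it ran from 8.06 to 8.37 in control and from 8.23 to 8.96 in KO for mitochondrial ribosomal proteins. For the respiratory chain it ran from 9.91 to 10.15 and from 9.74 to 10.57, and for the proteasome from 9.17 to 9.50 and from 9.19 to 9.94. Cytosolic ribosomal proteins had a median of 0.07 over 28 genes, with 5 higher (17.9%) and 0 lower at an unadjusted p under 0.05. Ribosome biogenesis genes had 0.22 over 30, with 2 higher (6.67% against 7.63% of all genes) and 0 lower. The mean log2 intensity of these 2 lists was also apart at day 7 and overlapped at day 21. Lists of TCA cycle and fatty acid oxidation genes and of histone genes were apart at day 7 as well. Being apart at day 7, with 3 arrays per group, was thus not particular to mitochondrial and proteasome genes.

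**Figure D4:**
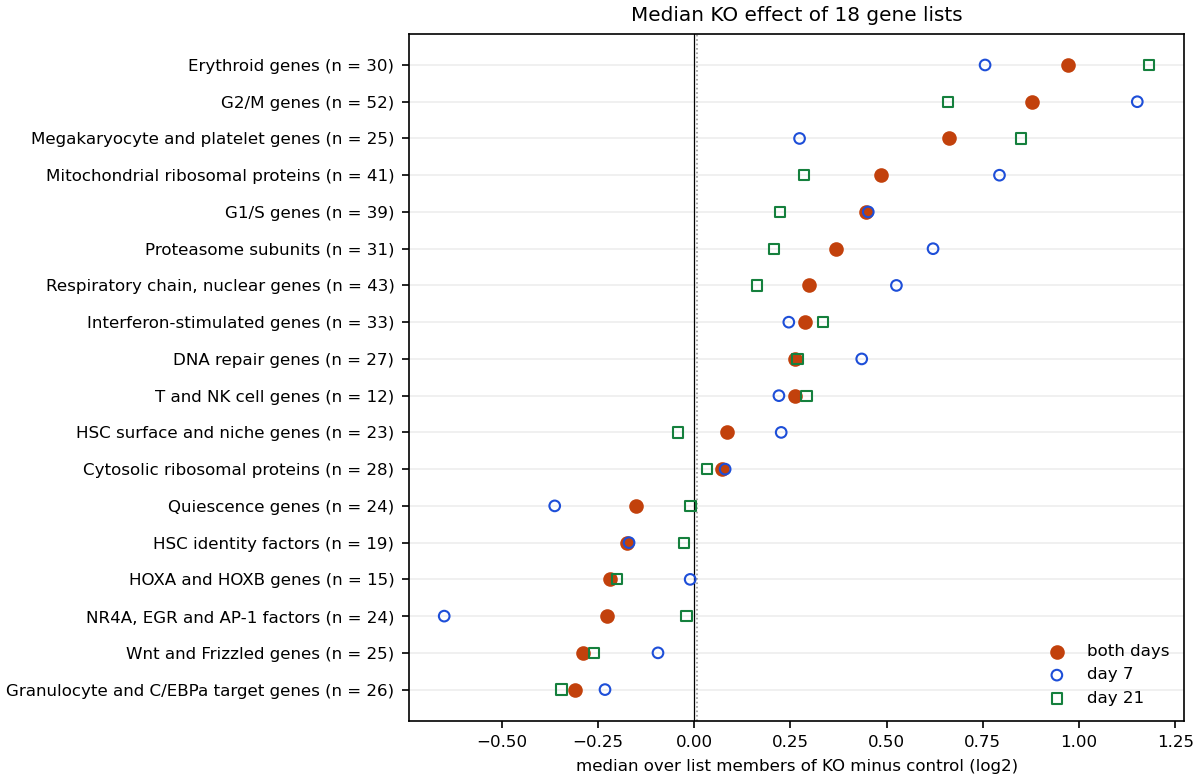
Median over list members of the log2 difference KO minus control for 18 gene lists, from the joint fit (filled circles) and within day 7 (open circles) and day 21 (open squares); n is the number of tested members and the dotted line the median of all genes, 0.0081. Erythroid, G2/M and megakaryocyte genes lie farthest to the right and granulocyte and Wnt genes farthest to the left for both days together.

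Cd69 and Il18r1, genes of lymphocyte activation and cytokine response, rose in KO. Cd69 encodes an early activation antigen that holds back egress from tissues. It lay at the floor on 4 of 7 control arrays, and its other control values were 16.7, 79.8 and 99.1. On the KO arrays it ran from 96.6 through 342 to 437. The groups were apart within each day, and KO day 21 replicate 1, at 96.6, lay just under control day 7 replicate 3. The fitted rise of 3.43 (SE 0.53, limma adjusted p = 0.0366) depends on the floor. Il18r1, a chain of the interleukin-18 receptor, ran from 32.5 through 38.4 to 80.7 in control and from 99.997 through 189 to 359 in KO, and rose by 2.05 (SE 0.29, limma adjusted p = 0.0366), 4.13-fold.

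Genes of cytotoxic lymphocytes had positive differences as well, without a call. Nkg7, a cytotoxic granule protein, had 1.74 (SE 0.46, limma adjusted p = 0.183), Gzmb, granzyme B, 1.33 (SE 0.39, limma adjusted p = 0.219), and Prf1, perforin, 0.74 (SE 0.20, limma adjusted p = 0.187; -0.0015 on its other probe set). The summed intensity of the 12 tested T and NK cell genes ran from 1356 to 2505 on KO arrays and from 922 to 1362 on control arrays. At an unadjusted p under 0.05, 4 members were higher (33.3% against 7.63% of all genes) and 1 lower (8.33% against 5.18%). The mean log2 intensity of these genes was apart at both days, from 5.51 to 5.72 in control and from 5.77 to 6.24 in KO at day 7, and from 5.61 to 5.66 and from 5.76 to 6.38 at day 21. Of the genes that define T cells, Cd3e lay at the floor on 9 of 14 arrays and had -0.05, and Cd3d had -0.41. The part of such cells in the rise of Cd69 and Il18r1 was not tested. Of 12 mast cell, basophil and eosinophil genes, 9 had a negative and 3 a positive difference (median -0.06). At an unadjusted p under 0.05, 2 were higher (16.7% against 7.63% of all genes) and 0 lower. The mean log2 intensity of this list was apart at day 21, from 5.198 to 5.35 in control and from 5.49 to 5.59 in KO, and overlapped at day 7. Its summed intensity overlapped at day 21, from 2656 to 3304 in control and from 2512 to 3788 in KO. Cpa3, the mast cell carboxypeptidase, had 1.83 (SE 0.33, limma adjusted p = 0.0726). Fcer1a, a chain of the IgE receptor, lay at the floor on all 7 control arrays and above it on 6 of 7 KO arrays, with a KO median of 78.8.

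The other rises were in genes with no shared role. Trim41, a RING finger ubiquitin ligase, ran from 16 through 41.1 to 87.3 in control and from 118 through 184 to 276 in KO, and rose by 2.14 (SE 0.28, limma adjusted p = 0.0169), with 0.32 on its other probe set. Eif4enif1, which carries the cap-binding factor eIF4E into the nucleus and represses translation, ran from 143 through 182 to 225 and from 256 through 357 to 438, and rose by 0.94 (SE 0.14, limma adjusted p = 0.0366). Pcyox1l, a relative of prenylcysteine oxidase, ran from 27.6 through 46.1 to 49.5 and from 66.6 through 93.7 to 112, and rose by 1.09 (SE 0.16, limma adjusted p = 0.0366). None of these overlapped between KO and control.

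Among falls, Fzd8 had the smallest p of all genes. It encodes a Frizzled receptor of Wnt ligands. Its intensity was 257, 305 and 528 on the day 7 control arrays and 133, 67.9 and 98.0 on the KO arrays. At day 21 it was 1052, 476, 380 and 712 in control and 108, 78.5, 102 and 108 in KO. All KO arrays lay below all control arrays, and Fzd8 fell by 2.29 on the log2 scale (SE 0.27, limma adjusted p = 0.0156), 4.90-fold. In a fit with 1 mean per group it was the one gene of the 11 that passed within a single day, at day 21 (-2.63, limma adjusted p = 0.0325).

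Most other Wnt pathway genes had negative differences, without a call. Of 25 tested, 17 had a negative difference (median -0.29), with 6 lower (24% against 5.18% of all genes) and 2 higher at an unadjusted p under 0.05, Fzd8 included. Fzd6, another Frizzled receptor, had -1.37 (SE 0.52, limma adjusted p = 0.309), but 0.05 and 0.06 on its other probe sets. Fzd2 had -0.35 (SE 0.10, limma adjusted p = 0.217), with 0.11 on another probe set. Tcf7l2, a factor that acts with beta-catenin, had -1.03 (SE 0.26, limma adjusted p = 0.172), with 0.30, 0.77 and 0.49 on its 3 others, so that its direction depended on the probe set. The mean log2 intensity of the list ran from 7.39 to 7.78 on control arrays and from 7.05 to 7.37 on KO arrays.

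Map9, which encodes a microtubule-associated protein of the mitotic spindle, fell by 1.80 (SE 0.28, limma adjusted p = 0.0366). Its intensity was 1381, 1239 and 1511 on day 7 control arrays and 265, 299.97 and 182 on KO arrays, and at day 21 272, 607, 490 and 729 against 142, 197, 282 and 215. Control day 21 replicate 1 lay below KO day 21 replicate 3, so the groups overlapped at day 21. The difference was -2.49 at day 7 and -1.28 at day 21 (unadjusted limma p of the interaction 0.0229, adjusted p = 0.989). On the remaining probe sets the values were -1.64 and -0.11.

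With only 3 falls called, the other genes with the smallest p among lower genes are given as values. All 12 had a limma adjusted p between 0.0618 and 0.0726. Ythdc2, an RNA helicase that binds m6A, had -1.76 (SE 0.30), Col16a1, a collagen chain, -1.74 (SE 0.32) and Spata13, a guanine nucleotide exchange factor, -1.72 (SE 0.32; -0.18 on a dim probe set). Lpp, a LIM protein of focal adhesions, had -1.22 (SE 0.21), but 0.45, 0.22, 0.01 and -0.20 on 4 of its 7 other probe sets. Stk40, a pseudokinase, had -0.87 (SE 0.16), and Snhg7, a host gene of small nucleolar RNAs, -0.97 (SE 0.18). Smaller differences were those of the ETS factor gene Elf2, at -0.75 (SE 0.13; 0.20 on another probe set), Rgs2, a regulator of G protein signalling, at -0.57 (SE 0.11), Gngt1, a G protein gamma subunit, at -0.59 (SE 0.11), and Cpne7, a copine, at -0.56 (SE 0.10; 0.03 on its other probe set). Spata13 ran from 869 through 1368 to 1906 in control and from 142 through 361 to 635 in KO. Of these 10 genes 9, all but Elf2, did not overlap over the 14 arrays. They were picked by p on the same arrays, so this adds no support.

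Erg and Klf4 completed these. Erg, an ETS factor required for HSC maintenance, ran from 1140 through 1575 to 2178 in control and from 744 through 1111 to 1275 in KO, apart within each day, with -0.62 (SE 0.12, limma adjusted p = 0.0726). Over the 19 HSC identity factors the median was -0.17. At an unadjusted p under 0.05, 2 were higher (10.5% against 7.63% of all genes) and 2 lower (10.5% against 5.18%). Hlf, a factor of HSC self-renewal, had -0.80 (SE 0.22, limma adjusted p = 0.187; -0.03 on its other probe set), and Fli1, an ETS relative of Erg that is also on the megakaryocyte list, 0.64 (SE 0.21, limma adjusted p = 0.255). Klf4, a factor that restrains the cell cycle, ran from 1487 through 3270 to 4785 and from 720 through 1378 to 2245, with -1.11 (SE 0.21, limma adjusted p = 0.0726) and -1.197 on its other probe set.

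Of the 24 tested quiescence genes, 7 were lower at an unadjusted p under 0.05 (29.2% against 5.18% of all genes), Klf4 among them. At that level 2 were higher (8.33% against 7.63%). The list median was -0.15, with -0.36 at day 7 and -0.0094 at day 21. On day 21, 11 of the 24 had a positive difference. Ndn, the gene for necdin, a growth suppressor of HSCs, had -1.59 (SE 0.34, limma adjusted p = 0.111) and was below control within both days. Egr1, an immediate early factor, had -0.27 (SE 0.09, limma adjusted p = 0.244). Cdkn1a, which encodes the cell cycle inhibitor p21, had -0.85 (SE 0.31, limma adjusted p = 0.293), composed of -1.87 at day 7 and -0.09 at day 21. Of 24 NR4A, EGR and AP-1 factors, 8 were lower (33.3%) and 0 higher at an unadjusted p under 0.05, and the median was -0.23, with -0.65 at day 7 and -0.02 at day 21. Dusp6, a MAP kinase phosphatase induced by ERK signalling, had -1.26 (SE 0.31, limma adjusted p = 0.166), and Fosl1, an AP-1 subunit, -0.92 (SE 0.30, limma adjusted p = 0.244).

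Granulocyte genes, among them known targets of C/EBPa, had the lowest median of the 18 lists plotted, at -0.31 over 26 tested genes, of which 20 were negative. At an unadjusted p under 0.05 only 3 were lower (11.5% against 5.18% of all genes) and 1 higher (3.85% against 7.63%), and none was called. Mpo, myeloperoxidase, ran from 29.3 through 448 to 847 in control and from 24.2 through 46.5 to 252 in KO. The low control value was that of day 21 replicate 1, so the groups overlapped, and the difference was -2.39 (SE 0.75, limma adjusted p = 0.238). Elane, neutrophil elastase, had a control median of 44.0 and lay at the floor on 4 of 7 KO arrays, with -1.14 (SE 0.28, limma adjusted p = 0.155). Csf3r, the receptor for G-CSF, had -0.45 (SE 0.20, limma adjusted p = 0.370), and -0.16 with the floor share as a covariate. Cst7, the 1 member higher at an unadjusted p under 0.05, had 1.03 (SE 0.42, limma adjusted p = 0.344). It lay at the floor on 6 of 14 arrays and had -0.02 at day 7 and 1.82 at day 21. Of 15 HOXA and HOXB genes, 12 were negative (median -0.22). At an unadjusted p under 0.05, 2 were lower (13.3% against 5.18% of all genes) and 0 higher.

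Interferon-stimulated genes, which pIpC induces, had a median of 0.29 over 33 tested. At an unadjusted p under 0.05, 4 were higher (12.1% against 7.63% of all genes) and 0 lower. The list's mean log2 intensity overlapped between groups at both days. At day 7 it ran from 7.52 to 7.88 in control and from 7.62 to 8.22 in KO. At day 21 it ran from 7.13 to 7.72 in control and from 7.58 to 8.81 in KO. KO replicate 4 had the value of 8.81, and the nearest array of its group 7.74. Usp18, an interferon-induced protease that damps the response, had 1.69 (SE 0.42, limma adjusted p = 0.166), with 4 of 7 control arrays at the floor, and Xaf1, a proapoptotic interferon target, 1.07 (SE 0.37, limma adjusted p = 0.283). Oasl1, another member, had 1.195 (SE 0.47, limma adjusted p = 0.329). Summed intensities overlapped between groups for the B cell, endothelial and granulocyte lists. They ran from 517 to 765 in KO and from 516 to 891 in control for 11 B cell genes, from 2603 to 3631 and from 2530 to 3818 for 18 endothelial genes, and from 3932 to 7132 and from 4803 to 9671 for the granulocyte list.

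No gene passed the interaction test between KO and day. limma called 0 genes for the difference, and the smallest adjusted p was 0.256. There were 798 genes at an unadjusted p under 0.05, where 833 would be found by chance, so the genes below are given as values only. Among the smallest p-values toward day 21, Egr2, a zinc finger factor of the EGR family, had -1.97 at day 7 and 2.87 at day 21, a difference of 4.83 (SE 0.85, limma adjusted p = 0.361). Its control arrays stood at 327, 226 and 896 at day 7 and at 30.8, 16.97, 37.5 and 48.6 at day 21, while KO arrays ran from 61.1 to 388 over both days. The same order held for Pced1a (difference 4.82), 4833407H14Rik (4.104), Hypk (3.54) and Mapk8ip3 (3.48). Toward day 7 the smallest p-values belonged to Rasgrp1, a Ras activator of lymphoid cells (-1.48), Zadh2 (-2.15), Pigt, of GPI anchor transfer (-2.06), the chemokine gene Ccl24 (-0.80) and Trappc5 (-1.61). Leaving out 1 array gave up to 2 calls: Sorbs2 without control day 7 replicate 1, Adamtsl4 and Zfhx2os without control day 7 replicate 3, Gimap7 without KO day 7 replicate 1, 4921517D16Rik and Cep72 without KO day 7 replicate 2, Mtmr10 and Pced1a without control day 21 replicate 4, and Ltb without KO day 21 replicate 2.

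**Figure D5:**
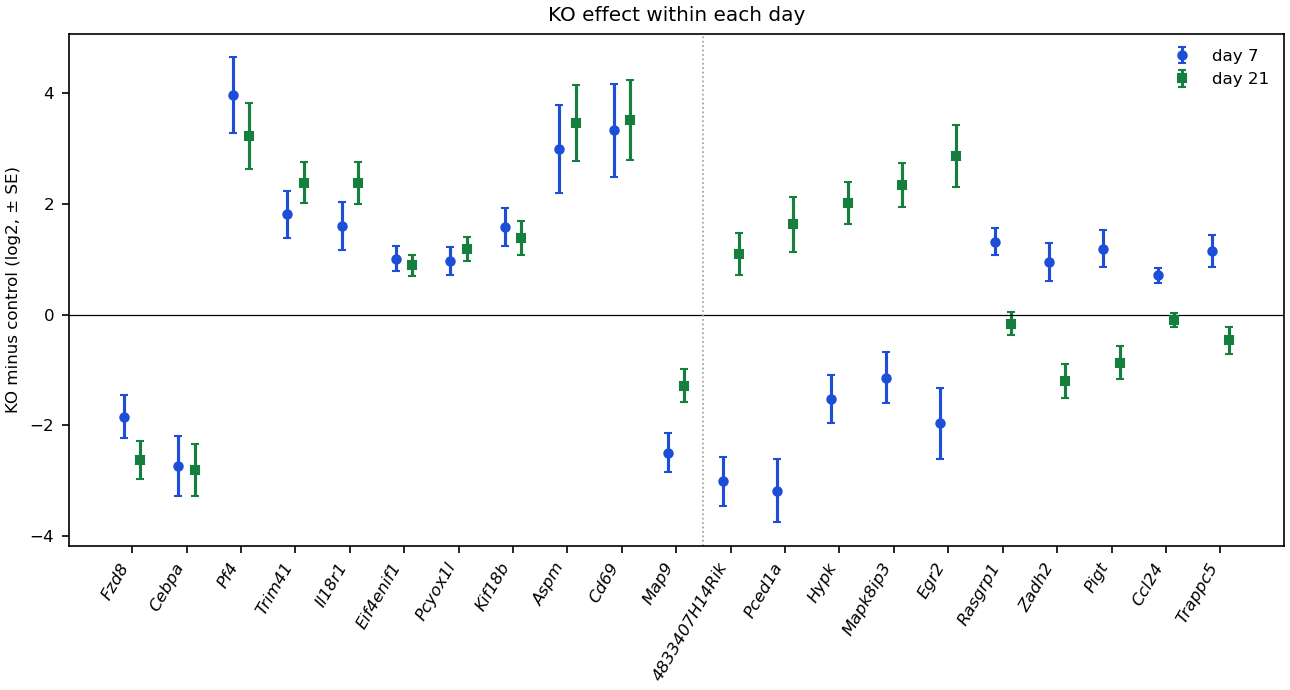
KO minus control (log2) within day 7 (blue circles) and day 21 (green squares), with SE, for the 11 called genes (left of the dotted line) and the 5 genes with the smallest interaction p in each direction (right of it). For the 11 called genes both days lie on the same side of 0, whereas Egr2 has -1.97 at day 7 and 2.87 at day 21.

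Motif letters were counted in 14 promoters of 8 of the 11 called genes and in those of the lists. TTTGAA occurred in 4 of 11 promoters of called rises (36.4%), those of Aspm and Kif18b and 2 overlapping ones of Il18r1. The C/EBP letters TTGCNNAA occurred in 1 of these 11 (9.09%), that of Pf4, and in 9.08% of promoters of all genes tested. None of the 3 promoters of Cebpa and Map9 held any motif searched, which included the AP-1 letters TGANTCA. Letters of the GATA family, for which TGATAA was counted as well, occurred in 13 of 27 promoters of the erythroid list (48.1%) and 6 of 18 of the megakaryocyte list (33.3%), against 11.9% for all genes tested. The AP-1 letters occurred in 5 of the 18 megakaryocyte promoters (27.8%) and 2 of the 27 erythroid ones (7.41%), against 5.86% for all genes tested. Around the 100 genes with the smallest p, TTTGAA occurred in 18.7% of promoters for higher genes and 12.0% for lower genes, and C/EBP letters in 4.40% and 7.20%. These are matches of letters on either strand of 300-base windows, described without a test.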

How the data were processed

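The 14 arrays were 3 control and 3 KO at day 7 and 4 of each at day 21, grouped by their titles. The authors deposited linear intensities for 45101 probe sets; per the submitters' processing notes RMA was used, and the authors' scaling and the floor of 16 are not explained in the sources used here. log2 of the deposited intensity was taken, with no pseudocount. Arrays give no count depth, and their number limits the precision. Probe sets with 1 gene in the platform annotation (34958; 932 had several, 9160 none) were named, 34754 of them matched to RefSeq symbols of GRCm38.p6. Each of 18194 genes was represented by its brightest probe set, by the mean log2 of the 14 arrays. Of them 1540 were left out because no array exceeded the floor, which left 16654.

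The model was log2 intensity on day and KO, fitted with lmFit and eBayes (limma 3.58.1, R 4.3.3; 11 residual and 1.5 prior degrees of freedom), and p-values were adjusted by Benjamini-Hochberg at 0.05 over all genes. A second fit with 1 mean per group gave within-day values and the interaction. The fit was tested on simulated data. All adjusted p-values are limma's. For genes named for the joint effect, other probe sets that differ in sign or by more than 1 are given, among those that exceeded the floor on some array.

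The comparison and the 55 gene lists (1303 entries, 1198 named) were chosen with earlier results of these data known. Lists are described by counts and medians, with no test. Named were Cebpa and Spi1, the 20 largest called rises and falls apart within both days, called list members, the 15 lower genes with the smallest p, up to 3 members of each list without a call, and 5 genes in each direction for the difference between days. Vwf, Foxm1, Aurka, Car1, Gata1, Klf1, Ache, Oasl1, Kit, Slamf1, Cd48, Cd3e, Cd3d, and the second and later members of lists with a call were named after their values were seen. Promoters were from RefSeq, GRCm38.p6. Alternatives covered array scaling, probe set choice, floor, filter, moderation, array weights, quality covariates, single days and omitted arrays.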

Additional observations from a re-analysis of the deposited data

Results flagged for a closer look

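In groups of 4 arrays, an array was singled out where its gap to the nearest other array as a share of the group's whole range on the log2 scale exceeded Dixon's 95% critical value. Of 310 groups of 4 examined, 17 met this, and chance gives about 5%.

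Among day 21 control arrays, Pcyox1l was low on replicate 2 (share of the range 0.879; log2 4.79 against 5.53 on the nearest array), and Cd69 was high there (share 1, the 3 others at the floor). Mpo was low on replicate 1 (share 0.894; 4.87 against 8.75), as was Pigt (share 0.934; 8.39 against 9.55). Usp18 was high on replicate 4 (share 1, the 3 others at the floor). The mean of the D-type cyclins and CDK regulators was high on replicate 2 (share 0.845), and that of the adhesion and migration genes low on replicate 3 (share 0.953; 8.03 against 8.30), the array farthest from its group.

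Among day 21 KO arrays, replicate 1 was low for Cd69 (share 0.839; 6.59 against 8.42), Mrps28 (share 0.869; 9.92 against 10.4) and Fli1 (share 0.894; 9.53 against 10.2). Replicate 2 was low for Mrpl20, a mitochondrial ribosomal protein (share 0.855; 8.40 against 9.10), and high for Elane (share 1, the 3 others at the floor) and for the mean of the mast cell, basophil and eosinophil genes (share 0.994; 5.59 against 5.49). Replicate 3 was low for Csf3r (share 0.895; 7.71 against 8.31) and high for Mycn, of the MYC family (share 0.897; 10.3 against 9.10). Replicate 4 was low for Lpp (share 0.949; 7.03 against 8.18) and high for the mean of the interferon-stimulated genes (share 0.868; 8.81 against 7.74).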

How the results depend on the processing

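Cebpa, Fzd8 and Pf4 kept their calls in all 14 omissions of 1 array. Of 87 genes named for the joint effect, 81 kept their direction in up to 33 settings. They were picked largely by p or after their values were seen on the same arrays, so a kept direction adds no support. The count of 11 calls was 4 to 9 with 1 array left out. It was 5 with both days weighted equally, 6 with arrays centred on their median, 20 with the mean of all probe sets, 18 with every named probe set, 6 with no filter, 18 with the floor raised to 32, 17 with trend and robust moderation, 5 unmoderated, 20 with array weights, 0 with either quality covariate, 1 (none of the 11) on day 7 arrays alone and 0 on day 21 arrays alone. Cebpa had -2.69 with the share at the floor (limma adjusted p = 0.142), -2.90 with the 3' to 5' ratio (0.0583), -2.73 at day 7 alone (0.373) and -2.82 at day 21 alone (0.264). Whether equal replicate numbers mark paired samples could not be settled. At day 7 the correlations of deviations were 0.029 to 0.080 for same-numbered arrays and -0.084 to 0.030 for others. At day 21 they were -0.024 to 0.021 and -0.056 to 0.051. With the replicate block 1 gene was called, Pf4, and Cebpa had -2.78 (limma adjusted p = 0.0905). Spi1 had -0.037 and -0.14 with the covariates, -0.027 at day 21 alone, -0.021 without the farthest control array of each day, a setting chosen after seeing the data, and -0.091 to 0.32 with 1 array left out. Calls for the difference between days numbered 0 to 2 with 1 array left out.

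Other reversals were Tcf7l2 at 0.13 with the mean of its probe sets, Ache at -0.023 and Cst7 at -0.018 on day 7 alone, Kit at 0.052 on day 7 alone and -0.15 to 0.010 with 1 array left out, and Slamf1 at -0.034 with median centring, -0.12 with the share at the floor, -0.044 at day 21 alone, -0.30 without the farthest controls and -0.18 to 0.32 with 1 array left out. Without control day 21 replicate 1 and KO day 21 replicate 4, Kit had 0.00024 and 0.010. The cause of these moves was not tested. Genes near the floor have only an upper bound there.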

Other observations

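Among 7384 probe sets without a gene name that were tested with all others, limma called 0, while 6 of all 39561 probe sets passed there. Polycomb and DNA methylation genes had a median of 0.29 over 19, and NF-kB feedback genes 0.29 over 18, with 0.03 at day 7 and 0.55 at day 21. Genes of the TGF-beta and BMP pathway had a median of -0.26 over 25, and MHC class II genes -0.27 over 8. In the TGF-beta and BMP list 2 were higher (8% against 7.63% of all genes) and 2 lower (8% against 5.18%) at an unadjusted p under 0.05. B cell, endothelial, hepatocyte and stromal lists had medians between -0.08 and -0.02.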
